A study of Ovis aries with 16 samples.

Results

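The DLK1-DIO3 region is an imprinted stretch of the genome that holds a large group of miRNA genes, and 8 of those in sheep lie at its DLK1 end, before the long miR-379 cluster. They are MIR493, MIR665, MIR431, MIR433, MIR127, MIR432, MIR136 and MIR370, in that order from the DLK1 side, and they were chosen by name and place, not by a threshold on their values. All 8 were present among the 105 miRNAs of the deposited table. By gene order in the RefSeq annotation of ARS-UI_Ramb_v3.0, a sheep genome, 54 of the 105 lie between DLK1 and DIO3, so these 8 are set beside 46 other miRNAs of the same region. Of the 8, 5 (MIR431, MIR433, MIR127, MIR432 and MIR136) lie within the span of RTL1, MIR493 and MIR665 lie on its DLK1 side and MIR370 on its DIO3 side.

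Liver and the thigh muscle vastus lateralis were sampled from 8 Suffolk females, with 1 library of each tissue from each animal. The 4 BPA animals (910, 918, 977 and 984) were born to ewes given bisphenol A, a plastics monomer, under the skin in corn oil at 0.5 mg per kg per day from day 30 to day 90 of gestation. The 4 control animals (902, 908, 924 and 928) were born to ewes given the oil alone over the same days. All 8 were sampled as adults of about 21 months, fasted for 48 hours and synchronised with prostaglandin, so the groups share the fast, the hormone treatment and the late follicular phase. The tissue labels were checked with MIR133, a miRNA of striated muscle, at 244661 normalized counts or more in every muscle and 717 or less in every liver, and with the summed hepatocyte miRNAs MIR194 and MIR148A, at 40787 or more in every liver and at 2028 or less in every muscle.

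In mammals the miRNAs of this region are transcribed from the maternal chromosome as part of long non-coding transcripts that begin near GTL2, also called MEG3, whereas DLK1, RTL1 and DIO3 are expressed mainly from the paternal one. The miRNAs inside the RTL1 span are made from a transcript antisense to RTL1, a gene derived from a retrotransposon, and because they match it perfectly they direct cleavage of the RTL1 transcript, as shown in mouse. RTL1 acts in placenta and in fetal and growing muscle. In sheep the callipyge mutation, which lies between DLK1 and GTL2, raises DLK1 and RTL1 in muscle and enlarges the muscles of the hindquarters. MIR493 and MIR370, outside the RTL1 span, are studied mostly in liver and tumour cells, and MIR370 is known in human liver cells for its links to lipid metabolism.

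The deposited values are read counts divided by 1 size factor per library, called normalized counts here, and every value was a whole multiple of the value of 1 read. Reads of listed miRNAs numbered 94393 to 240815 in control livers, 578150 to 1383538 in BPA livers, 471691 to 559705 in control muscles and 596919 to 1044886 in BPA muscles. In both liver and muscle the 2 treatment groups thus did not overlap in depth, with the BPA libraries deeper. The deposited factors were set within each tissue, and comparisons between tissues used reads rescaled over all 16 libraries, called rescaled values. A small RNA read covers the mature miRNA, so levels of different miRNAs were not divided by length. In bulk tissue, fewer cells of a type and less RNA per cell cannot be told apart.

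MIR127 made up nearly all reads of the group. It gave 89.6% ± 2.15 of the reads of the 8 miRNAs in control livers, 88.4% ± 3.17 in BPA livers, 88.0% ± 1.33 in control muscles and 88.5% ± 1.36 in BPA muscles (SD, n = 4 each). By mean normalized count it ranked 22nd of the 105 miRNAs in liver and 31st in muscle, and 1st of the 54 of the region in both tissues. The 8 miRNAs together took 0.983% ± 0.167 of all listed reads in livers of control animals and 0.921% ± 0.0678 in those of BPA animals, and 0.222% ± 0.0249 and 0.294% ± 0.0613 in muscles (SD, n = 4). Of all reads of the region, they held 56.4% to 71.8% in livers and 76.1% to 80.7% in muscles, so their share of the region was higher in every muscle than in every liver.

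**Figure D1:**
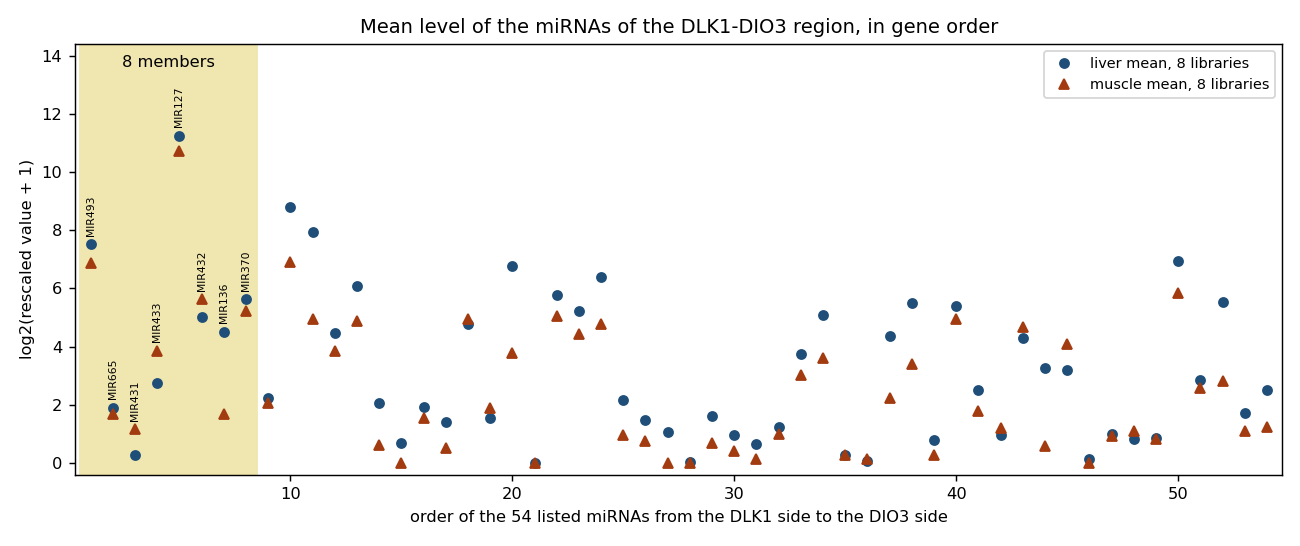
Mean level of each of the 54 listed miRNAs of the region in gene order, as log2(rescaled value + 1), for liver (circles, n = 8) and muscle (triangles, n = 8), with the 8 miRNAs of the DLK1 end shaded. MIR127 was the highest point in both tissues, MIR431 was near 0 in liver, and MIR433, MIR432 and MIR431 were the shaded miRNAs whose muscle mean lay above the liver mean.

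The other members spanned a wide range of levels. In liver, rescaled values were 2424 ± 366 for MIR127 and 182 ± 32.5 for MIR493, followed by MIR370 (48.3 ± 22.4), MIR432 (31.5 ± 6.48), MIR136 (21.8 ± 13.9), MIR433 (5.78 ± 2.12), MIR665 (2.73 ± 1.26) and MIR431 (0.214 ± 0.436; SD, n = 8). The ranges of neighbours overlapped from MIR370 down to MIR665, while MIR127, MIR493 and MIR431 stood clear of their neighbours. In muscle the order was MIR127 (1673 ± 265), MIR493 (118 ± 29.4), MIR432 (48.5 ± 11.1), MIR370 (36.4 ± 6.79), MIR433 (13.4 ± 6.12), MIR665 (2.24 ± 1.33), MIR136 (2.20 ± 1.28) and MIR431 (1.23 ± 1.19; SD, n = 8). There MIR432 and MIR370 overlapped, and so did MIR665, MIR136 and MIR431. MIR136, which lies next to MIR432, thus overlapped it in liver and lay below it in every muscle.

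Low read numbers limit 3 of the 8. MIR431 had 0 reads in 6 of 8 livers and 3 of 8 muscles and never more than 3, where 3 reads were worth 0.796 to 10.5 normalized counts in liver and 1.85 to 3.94 in muscle. MIR665 had 1 to 14 reads per liver and 0 to 4 per muscle. MIR136 had 11 to 53 reads per liver but 1 to 6 per muscle, with fewer than 3 in 6 of the 8 muscles. Tested were miRNAs with a mean value of at least 5, which left 6 members in liver and over both tissues and 5 in muscle. MIR431 and MIR665 were below this limit throughout, and MIR136 was below it in muscle.

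Between the tissues the members did not move together. Of the 6 tested over both tissues, MIR127, MIR493 and MIR136 were lower in muscle than in liver, MIR433 and MIR432 were higher on the scale over both tissues, and MIR370 did not pass. The test was limma on log2(rescaled value + 1), in a fit that did not pair the liver and muscle of an animal. A fit with the animal as a replicate block called the same members, and its adjusted p are given in the last section. Benjamini-Hochberg (BH) adjustment in the main test was over 75 miRNAs, of which 76% were called, 36% higher and 40% lower in muscle. With 5 of 6 members called, the share was near this background. MIR136 met the limit on low values only through its liver level, so a difference was built into its entry, and its tissue values are given as a description. It is still counted among the 5 called and in the median over the 6 members. The median log2 difference, muscle minus liver, was -0.41 over the 6 members, -0.98 over the 19 other tested miRNAs of the region and -0.14 over all 75.

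MIR136 had the largest tissue difference of the members. Its rescaled values were 5.71 to 48.7 in liver (median 21.9) and 1.04 to 4.55 in muscle (median 1.52), and all 8 muscles lay below all 8 livers. The log2 difference was -2.66 ± 0.33 (SE), and it ran from -1.74 with a pseudocount of 5 to -2.90 with one of 0.5, because the muscle values rest on a few reads. MIR127 was at 1858 to 2945 in liver (median 2484) and 1243 to 2102 in muscle (median 1716), with muscle lower in 7 of 8 animals (log2 difference -0.54 ± 0.12, limma adjusted p = 6.12e-04). MIR493 was at 145 to 224 in liver (median 183) and 96.2 to 179 in muscle (median 103), lower in muscle in 8 of 8 animals (-0.64 ± 0.16, adjusted p = 0.0016).

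MIR433 and MIR432, which flank MIR127 inside the RTL1 span, went the other way. MIR433 was at 2.60 to 8.67 in liver (median 5.69) and 5.81 to 22.2 in muscle (median 12.4), with 1 to 44 reads per liver. It was higher in muscle in 8 of 8 animals (log2 difference 1.03 ± 0.30, limma adjusted p = 0.0041). MIR432 was at 22.3 to 40.4 in liver (median 30.9) and 36.2 to 68.9 in muscle (median 48.9), higher in 7 of 8 animals (0.60 ± 0.18, adjusted p = 0.0051). MIR370 was at 17.2 to 93.2 in liver and 27.5 to 45.4 in muscle, and its muscle values lay within the liver range (-0.29 ± 0.23, limma adjusted p = 0.26). MIR665 and MIR431, not tested for their low level, were at medians of 2.58 and 0 in liver and 2.15 and 1.46 in muscle.

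These directions depend on the scale. On the deposited scale, MIR433 and MIR432 were at 0.51 and 0.03 and did not pass (limma adjusted p = 0.12 and 0.88), MIR370 was lower in muscle (-0.86, adjusted p = 0.0030), and the members called were 0 higher and 4 lower, against 17 higher and 45 lower of all 75 miRNAs and a median shift of -0.72. As each library's share of all listed miRNA reads, a scale on which the median of all tested miRNAs shifted by -1.52, MIR433 was at -0.20 and MIR432 at -0.75, and the members called were 0 higher and 5 lower, against 10 higher and 57 lower of all 75. Both counts of lower members include MIR136, whose difference was built into its entry. Relative to the median of all tested miRNAs, MIR433 was at 1.17, 1.23 and 1.31 and MIR432 at 0.74, 0.75 and 0.76 on the scale over both tissues, the deposited scale and the share of reads, while MIR127 was at -0.40 on each of them and MIR136 at -2.52, -2.40 and -2.60. With reads thinned to the depth of the shallowest library, MIR433 and MIR432 were at 0.51 and 0.43 and did not pass (limma adjusted p = 0.23 and 0.15). MIR432 also did not pass with 1 size factor over the 4 deposited tables (0.44, adjusted p = 0.12).

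**Figure D2:**
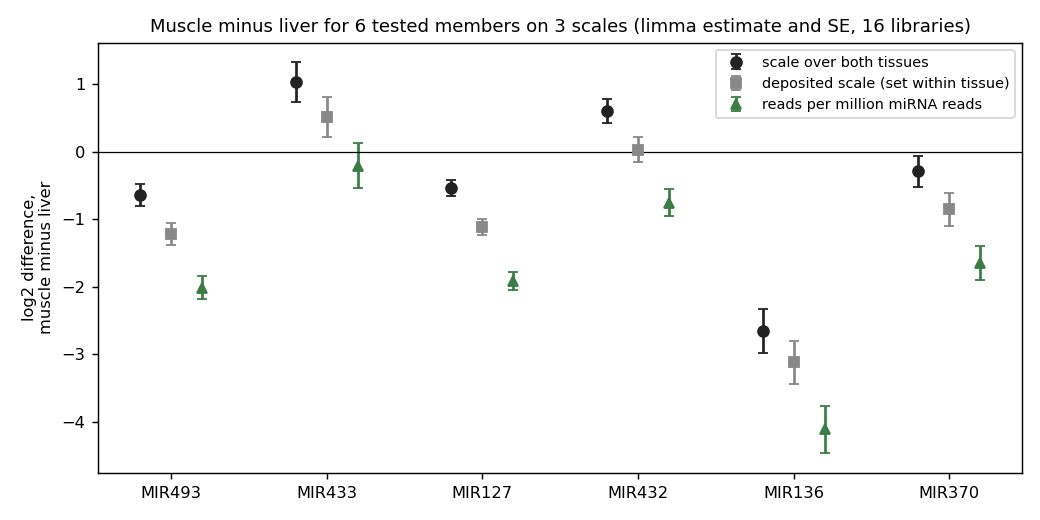
Log2 difference, muscle minus liver, of the 6 tested members (limma estimate and SE, 16 libraries) on the scale over both tissues (circles), the deposited scale set within each tissue (squares) and as a share of listed miRNA reads (triangles). The order of the members is the same on each scale, with MIR136 lowest and MIR433 highest, and the zero line moves with the scale.

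Ratios within a library do not depend on any scale. Per 1000 MIR127 reads there were 2.53 ± 1.28 MIR433 reads in livers and 7.96 ± 3.44 in muscles (SD, n = 8), and the ratio was higher in muscle in 8 of 8 animals (log2 difference 1.61, exact sign-change permutation p = 0.0078, the smallest that 8 animals allow). MIR432 gave 13.6 ± 4.78 reads per 1000 MIR127 reads in livers and 29.0 ± 4.55 in muscles, higher in 7 of 8 animals (log2 difference 1.15, exact p = 0.0156). MIR136 gave 9.31 ± 7.43 in livers and 1.35 ± 0.783 in muscles, and it had 10 reads or more in livers only, so that this ratio is a description too. MIR493 gave 77.3 ± 20.5 and 70.4 ± 11.7, and MIR370 20.5 ± 11.6 and 22.1 ± 5.03, with no difference beyond the spread (log2 differences -0.10 and 0.24, exact p = 0.51 and 0.45). After BH adjustment over the 14 ratio tests made here, MIR433 and MIR432 each had an adjusted p of 0.0729 and none of the 14 passed 0.05.

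In liver, 0 of the 6 tested members passed between BPA and control animals by limma, edgeR or DESeq2, while limma called 11.5% of the 78 tested miRNAs, 6.41% higher and 5.13% lower. The unadjusted limma p was under 0.05 for 1 of the 6 members and for 17 of the 78 miRNAs. The question was whether exposure before birth left a difference in these tissues of the adult. The median log2 difference, BPA minus control, was 0.05 over the 6 members, 0.35 over the 22 other tested miRNAs of the region and 0.05 over all 78.

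MIR136 came closest to the threshold. Normalized counts were 59.5, 26.7, 26.8 and 38.0 in the livers of control animals 902, 908, 924 and 928, and 9.55, 6.54, 17.0 and 28.5 in those of BPA animals 910, 918, 977 and 984. So 3 of 4 BPA livers lay below all controls, and that of 984 lay within the control range. The log2 difference was -1.36 ± 0.44 (SE, limma adjusted p = 0.058). It passed without BPA animal 984 (-1.70, limma adjusted p = 0.0110), with a pseudocount of 5 (-1.12, adjusted p = 0.0392) and with a term for the library code (-1.65, adjusted p = 7.64e-04), and its adjusted p ran from 7.64e-04 to 0.92 over the alternatives. Reads thinned to the shallowest liver library left it at -1.33 (adjusted p = 0.15). The BPA livers were the deeper libraries throughout, so depth and treatment cannot be told apart in liver. Of 5 epithelial markers, 3 were listed, MIR200A, MIR200B and MIR200C. Their sum was at 482 to 1367 in control and 1504 to 1965 in BPA livers, and its part in the MIR136 difference was not tested.

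The library codes in the labels place 1 control liver (902) and 2 BPA livers (977 and 984) at codes up to 79, and 3 control livers and 2 BPA livers (910 and 918) above. Within the lower codes MIR136 was at 59.5 in the control liver and at 17.0 and 28.5 in BPA livers. Within the higher codes it was at 26.7 to 38.0 in control livers and at 9.55 and 6.54 in BPA livers. The BPA livers were below the control livers within both ranges. Within each range, however, the codes of control and BPA livers did not overlap. The order of codes and the treatment thus cannot be told apart within a range. No test was run within a range. The fit with the library-code term, given above, separates only codes up to 79 from higher ones, so it cannot decide this either.

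MIR370 showed the opposite order. Normalized counts were 21.0, 45.9, 61.1 and 47.5 in control livers and 125.5, 72.5, 58.9 and 45.7 in BPA livers, in the order of animals given above. Of the BPA livers, 2 lay above all controls and 2 within their range. The log2 difference was 0.77 ± 0.39 (SE, limma adjusted p = 0.26), and with the library-code term it was 1.02 (adjusted p = 0.0129). The control liver with the lowest value, 902, is also the shallowest, and its MIR370 value rests on 6 reads; without it the difference was 0.46 (limma adjusted p = 0.47). Without BPA animal 910, the highest, it was 0.49 (limma adjusted p = 0.50).

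MIR127, the most abundant member, was at 2270.2, 3149.7, 3668 and 3334 in control livers and at 2760.4, 2517, 2976 and 3068 in BPA livers. All 4 BPA livers lay within the control range (log2 difference -0.12 ± 0.21 SE, limma adjusted p = 0.85). MIR493 was at 180 to 250.3 in control and 178 to 301 in BPA livers, MIR432 at 26.7 to 49.0 and 31.7 to 54.4, and MIR433 at 3.17 to 10.5 and 4.87 to 11.7. For these 3 the groups overlapped and the log2 differences were 0.05 ± 0.27, 0.06 ± 0.31 and 0.16 ± 0.41 (SE, limma adjusted p = 0.91, 0.91 and 0.90). MIR665 was at 2.98 to 6.34 in control livers, from 1 to 3 reads each. It was at 1.61 to 3.72 in BPA livers, from 3 to 14 reads each, with 3 of 4 BPA livers below all controls. A single read was worth more in every control liver than in every BPA liver. At such low reads this order cannot be told apart from depth, and no difference is read from it. MIR431 was listed above 0 in 1 control and 1 BPA liver.

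With 1 size factor over the 4 deposited tables instead of 1 for the miRNA table, the median of all tested miRNAs in liver shifted to 1.51 and 5 of the 6 members were called higher in BPA livers, as were 65 of all 78 miRNAs, with 0 lower. MIR136 was then at 0.05 and MIR127 at 1.35. Relative to that median, MIR136 was at -1.46, MIR370 at 0.68 and MIR127 at -0.16, against -1.41, 0.71 and -0.17 with the deposited factors.

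**Figure D3:**
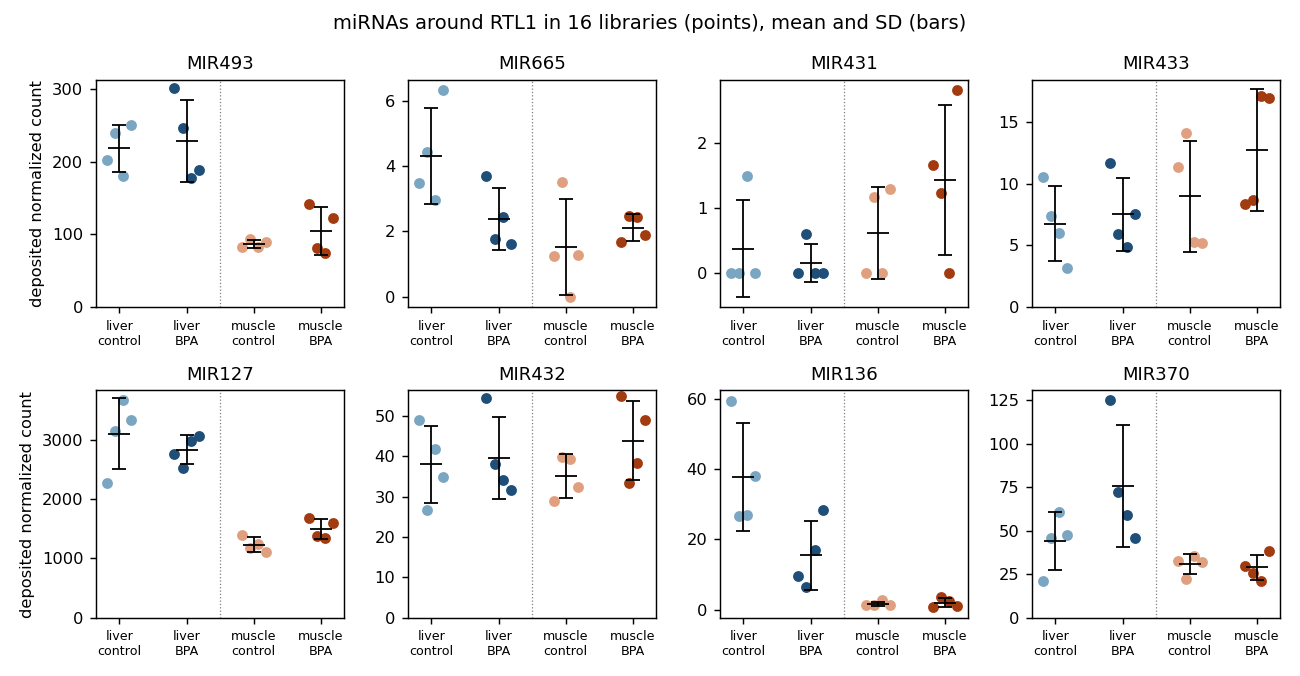
Deposited normalized counts of the 8 miRNAs in each of the 16 libraries (points), with the mean and SD of each group of 4 (bars), on linear axes. MIR136 in liver shows 3 of 4 BPA points below all controls, MIR370 in liver 2 of 4 above, and the groups overlap for MIR127 in liver. Values in liver and muscle panels are scaled separately.

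Set against MIR127 in the same library, MIR136 gave 26.2, 8.46, 7.31 and 11.4 reads per 1000 MIR127 reads in control livers and 3.46, 2.60, 5.72 and 9.29 in BPA livers, in the order of animals above. Again 3 of 4 BPA livers lay below all controls (log2 difference -1.33, exact permutation p = 0.0857, where 4 against 4 cannot go below 0.0286; adjusted p = 0.20 over the 14 ratio tests). MIR370 gave 13.7 ± 3.14 reads on the same scale in the controls and 27.2 ± 13.5 in BPA livers (SD, n = 4), with 3 of 4 BPA livers above all controls (log2 difference 0.85, exact p = 0.0571, adjusted 0.20). In muscle MIR370 gave 25.1 ± 4.78 in controls and 19.2 ± 3.57 in BPA animals, with 3 of 4 BPA muscles below all controls (log2 difference -0.39, exact p = 0.0857, adjusted 0.20). The ratios of MIR493, MIR432 and MIR433 to MIR127 differed between BPA and control animals by less than the spread in either tissue (log2 differences from -0.07 to 0.21, exact p of 0.63 or more). In liver, MIR433 met the limit of 10 reads only through the BPA libraries and had 1 to 5 reads per control liver, so its liver ratio is a description.

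**Figure D4:**
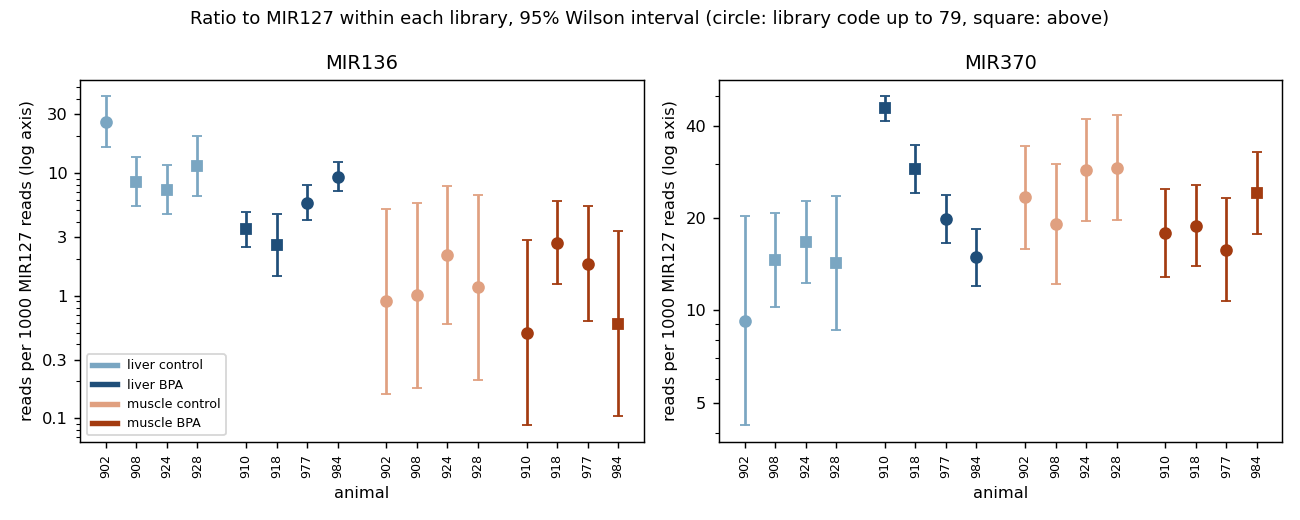
Reads of MIR136 (left) and MIR370 (right) per 1000 MIR127 reads in each library, on log axes, with the 95% Wilson interval, which covers counting error only. Circles mark library codes up to 79 and squares higher codes. MIR136 lay between 7.31 and 26.2 in control livers and between 2.60 and 9.29 in BPA livers, and intervals in muscle are wide because each library held 1 to 6 reads.

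In muscle, 0 of the 5 tested members passed by limma, edgeR or DESeq2, where limma called 0% of the 70 tested miRNAs. An unadjusted p was under 0.05 for 0 of the 5 members and 3 of the 70 miRNAs by limma, 1 and 2 by edgeR, and 1 and 4 by DESeq2. MIR127 was at 1400.2, 1168, 1237 and 1106 in control muscles and at 1675, 1375, 1345 and 1596 in BPA muscles, the animals in the same order. The muscles of BPA animals 910 and 984 lay above all controls, and those of 918 and 977 within their range (log2 difference 0.29 ± 0.14 SE, limma adjusted p = 0.71). MIR493 was also above all controls in 910 and 984 but below all of them in 918 and 977, at 82.8 to 94.0 in control muscles, 142 and 123 in BPA animals 910 and 984, and 80.9 and 74.2 in 918 and 977 (log2 difference 0.22 ± 0.24, limma adjusted p = 0.84).

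MIR432 was also above all control muscles in 910 and 984, at 54.9 and 48.9 against 28.9 to 39.9, and at 33.4 and 38.3 in 918 and 977. MIR433 was instead above all controls in 977 and 984, at 17.1 and 16.9 against 5.17 to 14.1. The log2 differences of MIR432, MIR433 and MIR370 were 0.30 ± 0.25, 0.51 ± 0.40 and -0.10 ± 0.28 (SE, limma adjusted p = 0.84, 0.84 and 0.87). The muscle libraries of control animals carry codes 73 to 76 and those of BPA animals codes 77 to 79 and 97, so in muscle the order of codes and the treatment cannot be told apart. The BPA muscles were also the deeper libraries throughout, so depth and treatment cannot be told apart there either. MIR136 was at 1.17 to 2.63 in control and 0.832 to 3.71 in BPA muscles, close to the value of 1 read in most of them, and a difference between the groups was not detectable at this depth. MIR370 was at 22.3 to 35.5 in control and 21.2 to 38.6 in BPA muscles, MIR665 at 0 to 3.52 and 1.66 to 2.47, and MIR431 at 0 to 1.29 and 0 to 2.82, with overlap for each.

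The test of whether the BPA difference itself differed between the tissues was passed by 0 of the 6 tested members with limma, and likewise with edgeR and DESeq2; limma called 2.67% of 75 miRNAs. An unadjusted p was under 0.05 for 1 of the 6 members and 13 of the 75 miRNAs by limma, 0 and 11 by edgeR, and 0 and 12 by DESeq2. For MIR370 the log2 interaction, muscle minus liver, was -0.82 ± 0.46 and for MIR127 0.44 ± 0.25 (SE, limma adjusted p = 0.35 for both). MIR136 entered through its liver level and had 1 to 6 reads per muscle, so no interaction is read for it. MIR493, MIR432 and MIR433 were at 0.21, 0.28 and 0.40 (limma adjusted p = 0.76, 0.72 and 0.76). With the animal as a replicate block, 0 of the 75 miRNAs passed the interaction in limma, and 7 had an unadjusted p under 0.05. The muscle and liver comparisons share no library, but they share the animals.

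Members rose and fell with different miRNAs from library to library. Likeness was measured as Pearson's r of log2(rescaled value + 1) over the 8 livers, among 75 miRNAs, as a description. Depth and treatment differ among these libraries and were not removed, here or in the likeness below. Each r therefore includes any difference between BPA and control animals. MIR136 was most like MIR374A (r = 0.93), MIR380 (0.92) and MIR299 (0.91), of which the last 2 belong to the miR-379 cluster. It ranked 70th of 74 in likeness to MIR370 (r = -0.89), and its r with MIR127 was 0.16. MIR127 was most like MIR494 (0.75), also of the cluster, MIR107 (0.71) and MIR29B-2 (0.67), and its r with MIR433 and MIR432, its neighbours in the RTL1 span, was -0.68 and -0.66.

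Over the 8 muscles the picture for MIR127 differed, with MIR382 (r = 0.87), MIR125B (0.80), MIR432 (0.66) and MIR493 (0.65) as the 4 most alike. MIR136 was too low in muscle for a likeness to be read. Over all 16 libraries with the mean of each tissue removed, MIR127 was most like MIR181A-1 (0.57), MIR181A-2 (0.56) and MIR30A (0.50). The rows of the 2 MIR181A genes share a mature sequence, so their reads may not be separable.

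Beyond the 8 miRNAs, the files hold other RNAs of the region. Of the 46 other miRNAs, 22 were tested in liver, where MIR409 was higher (log2 difference 1.37) and MIR154A and MIR381 were lower (-1.53 and -1.25) in BPA animals (limma adjusted p = 0.0093, 0.0124 and 0.0417), near the 11.5% called over all 78, and 16 in muscle, where none was called, with 1 at an unadjusted limma p under 0.05. Between tissues, 13 of the 19 tested were lower in muscle, where 40% of all 75 were, and 1, MIR154B, was higher, where 36% were (log2 difference 1.03, limma adjusted p = 0.0325). The lowest, MIR411A, MIR494 and MIR369, were at -3.04, -3.00 and -2.74 (limma adjusted p = 2.46e-09, 6.89e-11 and 1.09e-07), which is close to the -2.66 of MIR136. MIR655, among the 13 lower, had mean rescaled values of 19.7 in liver and 3.73 in muscle. It met the limit on low values only through liver, so a difference was built into its entry.

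GTL2, the non-coding RNA from which the maternal transcript begins, had 0 to 7 reads per liver and 1 to 5 per muscle and was not tested. A second locus, LOC105606646, is listed in the lncRNA table, although the gene table gives it as protein coding. It spans 50 miRNA genes and 33 snoRNA genes there, among them MIR432, MIR136 and MIR370, so its reads cannot be assigned to the locus itself. It was at 167 ± 34.2 in control and 211 ± 50.4 in BPA livers and at 96.7 ± 18.7 and 131 ± 27.4 in control and BPA muscles (SD, n = 4; log2 differences 0.34 and 0.43, limma adjusted p = 0.56 and 0.43, where 35.5% and 5.3% of the lncRNA table were called).

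The 33 snoRNAs of the region were low, with reads for 19 of them in each tissue. Of the 4 tested in liver, 0 passed by limma, also 0 at an unadjusted p under 0.05, where 50% of the snoRNA table was called. In muscle 1 was tested, LOC114109215. It was at 2.42 to 6.46 in control and 20.7 to 46.3 in BPA muscles (log2 difference 2.65 ± 0.35 SE), where limma called 32.7% of the table. In liver the same snoRNA was at 3.90 to 18.3 in controls and 3.42 to 20.3 in BPA animals, with overlap (log2 difference 0.49 ± 0.58, limma adjusted p = 0.49). It passed the limit on low values in muscle only through its BPA libraries, with a control mean of 4.11. A difference was thus built into its entry, and its muscle values are given as a description. Reads of listed snoRNAs numbered 2825 to 3872 in control and 9886 to 15915 in BPA muscles, and the snoRNA table has its own size factors.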

How the data were processed

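Small RNA libraries of 16 samples were analysed. Per the submitters' processing notes, cutadapt 3.2, STAR 2.6.0c and featureCounts 1.6.1 were used; what each did, the build, and how size factors were set are not stated in the labels. Values in the 4 deposited tables are a signal: reads over a size factor that is constant within a library. All values were whole multiples of 1 step (tolerance 0.001), which gave the reads; counts are per gene, so the 2 arms of a hairpin are not separated. Within a tissue, all libraries of a table had an equal median ratio to their average, so factors were set within table and tissue. Against median-of-ratios factors set over 16 libraries, deposited values put muscle -0.59 log2 units relative to liver.

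R 4.3.3 and limma 3.58.1, with its trend option, were used on log2(value + 1), a scale that understates changes of low miRNAs, for all miRNAs with a mean of at least 5, with BH adjustment and a threshold of 0.05. The scripts were tested on simulated data. Alternatives were edgeR 4.0.16 and DESeq2 1.42.0 on recovered reads, other scales, pseudocounts and filters, and leaving out libraries or animals. Ratios to MIR127 were tested where at least 10 reads were present in at least 50% of the libraries compared. The members and lists were chosen with earlier results of these data known. The named miRNAs are the 8 members, called miRNAs of the region and the 3 most alike. No 2 libraries of a group agreed within sampling noise (chi-square per degree of freedom 18.2 or more). The same number marks the same animal, so numbers pair the libraries. Deviations of own liver and muscle correlated by -0.67 to 0.40 over 75 miRNAs, and the own muscle was the most alike in 0 of 8 animals. The pairing thus rests on the labels alone. Intervals cover counting error only.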

Additional observations from a re-analysis of the deposited data

Results flagged for a closer look

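Of 60 groups of 4 values examined for a sample far from the others, 5 held one, and chance alone flags about 1 in 20. In each the distance is 1 read. MIR431 was at 1.49 normalized counts in the liver of control animal 924 and at 0.594 in that of BPA animal 918, each a single read, where the other 3 livers of the group were at 0. The same reads gave 0.406 and 0.236 MIR431 reads per 1000 MIR127 reads. MIR136 was at 2.63 in the muscle of control animal 924, from 2 reads, against 1.17 to 1.29 from 1 read in the other 3 control muscles.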

How the results depend on the processing

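With 1 size factor over the 4 tables, 65 miRNAs and 5 members were called between BPA and control liver (9 and 0 in the main test) and 70 and 5 in the interaction (2 and 0). MIR127 and MIR136 in liver then stood at 1.35 and 0.0488, MIR493 in muscle at -0.0086, and the interactions of MIR493, MIR433, MIR127, MIR432 and MIR136 at -1.79, -1.32, -1.57, -1.67 and -0.28. With the library-code term 19 miRNAs and 2 members were called in liver, and with a pseudocount of 5, 1 member. Leaving out 1 liver library gave 4 to 15 called miRNAs (5 without BPA 910, 4 without BPA 918, 15 without BPA 984) and 0 to 1 members. The interaction gave 1 miRNA with no filter, 1 with edgeR, 0 with the replicate block and 0 to 5 without 1 animal. The replicate block changed no member's call. Between tissues it put the limma adjusted p of MIR493, MIR433, MIR127 and MIR432 at 0.0049, 0.0051, 0.0062 and 0.0189. As shares of miRNA reads, MIR433 and MIR432 turned to -0.20 and -0.75 between tissues and MIR370 in muscle to 0.0149. With thinned reads, 3 members were called between tissues, and MIR433 in liver and the interaction of MIR493 turned to -0.0147 and -0.0558. With 1 read added, the ratios of MIR433 in liver and of MIR432 in muscle to MIR127 turned to -0.0834 and -0.0055. Differences near 0 also changed sign without 1 library: in liver MIR493 (-0.10 to 0.16), MIR433 (-0.10 to 0.38) and MIR432 (-0.10 to 0.19), in muscle MIR370 (-0.24 to 0.0365), and as ratios to MIR127 in liver MIR493 (-0.0206 to 0.29), MIR433 (-0.17 to 0.47) and MIR432 (-0.0356 to 0.42), and in muscle MIR493 (-0.18 to 0.0262), MIR433 (-0.0050 to 0.48) and MIR432 (-0.15 to 0.0930). The cause was not tested. Depth limits MIR431, MIR665 and, in muscle, MIR136.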
